A study of Mus musculus with 3 samples.

Results

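The genes described here handle fatty acids in the absorptive epithelium: Fabp1, Fabp2, Cd36, Ppara, Cpt1a, Acadl, Acadm and Ehhadh. They were taken by symbol from the list of genes counted, and all 8 were found, out of 51912 genes listed and 26362 genes with at least 1 transcript in the cells analysed. Their expression was measured by single-cell RNA sequencing (scRNA-seq) of epithelial cells from mouse intestine, in 2 libraries of Arid3a cKO mice and 1 WT library. Arid3a cKO mice carried VillinCreERT2, a tamoxifen-activated recombinase driven by the promoter of the epithelial gene Villin, together with floxed Arid3a alleles (Arid3a fl/fl). The WT mouse carried VillinCreERT2 alone, and tamoxifen was given to both genotypes at an age of 8 to 10 weeks, 1 month before harvest. Living Epcam+ CD45- CD31- cells were sorted from dissociated crypts. The labels name the tissue as intestine without its segment. For dissociation, the methods refer to a protocol that starts from crypts of the proximal jejunum.

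Enterocytes absorb dietary fatty acids at their brush border, bind them in the cytosol, and either re-esterify them into triglycerides for export or oxidise them. Long-chain fatty acids enter mitochondria as carnitine esters, and acyl-CoA dehydrogenases of graded chain-length preference then start each round of beta-oxidation. Peroxisomes shorten very long and branched chains by a separate set of enzymes. PPAR-alpha is a nuclear receptor for fatty acids that pairs with the retinoid X receptor and is known for activating many of these genes in liver and intestine.

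Values are unique molecular identifiers (UMIs, 1 per captured transcript) summed over the cells of a class in a library and given per 1000000 UMIs of that sum (CPM). Transcripts were counted near their 3′ end. Cells with at least 1000 genes and at most 15% mitochondrial UMIs were kept, which left 2134, 1550 and 1910 cells of Arid3a cKO 1, Arid3a cKO 2 and WT (the order used below), with medians of 29895 to 35764 UMIs per cell. The kept cells held 58169310 to 70922480 UMIs per library. Their median mitochondrial share was 4.64%, 4.07% and 5.52%, so that WT was highest. Arid3a itself had 42, 52 and 161 UMIs (0.592, 0.894 and 2.57 CPM), lower in both cKO libraries than in WT. At most 2 cell barcodes were shared by any pair of libraries. With a single WT library, genotype and library cannot be told apart.

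The cells were grouped in 12 clusters without use of the 8 genes. Clusters were named from marker genes as stem cells (ISC), transit-amplifying (TA), goblet, Paneth, enteroendocrine and tuft-like cells and as 4 enterocyte-like clusters. The enterocyte-like clusters had 15 to 18 of 20 enterocyte markers at least 1.5-fold above other cells. Of these, 3 were led by Cubn, Ms4a18 or S100g, and the fourth, of 60 cells, by interferon-response genes such as Ifit3 and Isg15. A cluster of 726 cells led by genes such as Ccl20, Edn2 and Krt19 and a cluster of 152 cells with a median mitochondrial share of 11.8% had too few markers of any class and stayed unnamed. Enterocytes made up 39.2% (836 cells, 95% exact interval 37.1 to 41.3%) and 39.1% (606 cells, 36.7 to 41.6%) of the kept cells of the cKO libraries and 36.5% of those of WT (698 cells, 34.4 to 38.7%). These intervals overlapped, and like all intervals of counts below they cover counting error only.

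The promoters of the 8 genes fell into 2 groups by base composition. Those of both binding proteins, the most abundant of the 8 genes in enterocytes, and that of Cpt1a, the gene with the lowest ratio of enterocyte to crypt expression, are printed as examples of each. A window of 250 bases upstream of the start was available for 8 of 8 genes from RefSeq (GRCm38.p6). The window of Fabp1 is chr6:71199629-71199878 on the plus strand, that of Fabp2 is chr3:122894822-122895071 on the plus strand, and that of Cpt1a is chr19:3323051-3323300 on the plus strand. For Fabp1, Cpt1a, Ppara and Cd36 the RefSeq start lies downstream of the GENCODE gene start given below. The Cd36 window, chr5:17835897-17836146 on the minus strand, lies well inside the GENCODE gene, which spans 17781690 to 17888801. Capitals mark matches to the motifs named below, and the last base is next to the start.
Fabp1: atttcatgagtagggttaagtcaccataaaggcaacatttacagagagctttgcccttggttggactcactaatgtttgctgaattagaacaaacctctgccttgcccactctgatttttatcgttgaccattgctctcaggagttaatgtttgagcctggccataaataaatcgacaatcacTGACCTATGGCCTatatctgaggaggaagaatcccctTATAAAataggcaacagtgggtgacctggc
Fabp2: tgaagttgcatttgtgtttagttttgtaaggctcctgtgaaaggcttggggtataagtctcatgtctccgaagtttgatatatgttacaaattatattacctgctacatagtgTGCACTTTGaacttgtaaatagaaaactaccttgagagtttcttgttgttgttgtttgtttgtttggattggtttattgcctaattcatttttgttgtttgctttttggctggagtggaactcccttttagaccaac
Cpt1a: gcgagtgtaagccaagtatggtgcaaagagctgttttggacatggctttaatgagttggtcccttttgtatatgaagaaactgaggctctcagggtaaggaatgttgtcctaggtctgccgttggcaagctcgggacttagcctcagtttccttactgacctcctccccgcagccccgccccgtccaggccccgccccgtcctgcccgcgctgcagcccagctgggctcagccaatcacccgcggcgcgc

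The motifs searched, on both strands, were the DR1 direct repeat AGGTCANAGGTCA and the HNF4 core CAAAGTCCA, which resemble each other and can overlap, the HNF1 palindrome GTTAATNATTAAC and the TATA box TATAAA. The first 3 were allowed 1 mismatch. DR1 repeats are the kind of element bound by PPAR with the retinoid X receptor and also by HNF4, a factor of differentiated enterocytes. Fabp1 had a DR1 match on the minus strand at -67 to -55, a match that 0.484% of 32851 such windows hold, and a TATA box at -30 to -25, which 12.4% of windows hold. Fabp2 had an HNF4 match at -137 to -129 and Acadm another at -54 to -46, against 7.05% of all windows. No window of the 8 genes matched the HNF1 palindrome, which 0.189% of windows hold, and the other 5 genes matched none of these letters. G and C bases made up 42.8% of the Fabp1 window, 35.6% of that of Fabp2 and 43.2% of that of Cd36, all below the median of 52.4% over all windows. In the other 5 genes the share was 59.6 to 76.4%, from Cpt1a to Ppara. CG pairs numbered 1 to 3 in the first 3 genes and 12 to 27 in the other 5.

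Fabp1 and Fabp2 encode the liver-type and intestinal-type fatty acid binding proteins of the enterocyte cytosol. Fabp1 (ENSMUSG00000054422, chromosome 6, 71199827 to 71205023, plus strand, GRCm38, protein-coding like the other 7) stood at 24594, 25963 and 24574 CPM in enterocytes. In ISC and TA cells together it stood at 787, 984 and 939 CPM, so that enterocytes were 31.2, 26.4 and 26.2 times higher in the same order. Fabp2 (ENSMUSG00000023057, chromosome 3, 122895072 to 122899506, plus strand) had 15960, 16599 and 14952 CPM in enterocytes and ratios to ISC and TA cells of 18.5, 16.0 and 15.5. These ratios describe clusters of the same cells and carry no test.

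The order of the other classes was not the same for the 2 binding proteins. Barcodes outside the cell limits, which include damaged cells and free RNA, held 2120, 1927 and 1458 CPM of Fabp1 and 2062, 1821 and 1418 CPM of Fabp2. Mean levels in TA, ISC, goblet and Paneth cells were below these for Fabp1. For Fabp2, every named class but enterocytes was below the level outside the cell limits in each library. The part of free RNA in these classes was not tested. Tuft-like cells were the second highest class for Fabp1, at 9006, 4563 and 4449 CPM from 38, 20 and 40 cells, above every other class but enterocytes in each library. For Fabp2 they had 1305, 688 and 251 CPM, a range that overlapped those of enteroendocrine cells and ISC. Tuft-like cells were shallow, with a median of 0.294 of their library's median UMIs, and had a median of 9.32% mitochondrial UMIs. Per Fabp2 UMI there were 6.90, 6.63 and 17.7 Fabp1 UMIs in tuft-like cells, 1.54, 1.56 and 1.64 in enterocytes, and 0.282, 0.424 and 0.351 in goblet cells. In barcodes outside the cell limits the ratio was 1.03, 1.06 and 1.03. By the mean over libraries, goblet cells came second for Fabp2 (1482 CPM ± 157, SD, n = 3 libraries), although enteroendocrine cells were higher in Arid3a cKO 2 (1813 against 1641 CPM). For Fabp1, goblet cells (526 CPM ± 149) and ISC (528 CPM ± 108) overlapped. Paneth cells, which are not absorptive and had a median of 4.16 times their library's median UMIs, had the lowest level of both genes, with 51.9 to 338 CPM of Fabp1.

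Cd36 (ENSMUSG00000002944, chromosome 5, 17781690 to 17888801, minus strand), a membrane receptor and transporter of long-chain fatty acids, was found mainly in enterocytes. It had 63.4, 56.8 and 50 CPM there, from 1694, 1192 and 1069 UMIs, and 3.81, 3.15 and 2.83 CPM in ISC and TA cells, a ratio of 16.7, 18.0 and 17.6. Enteroendocrine cells came next at 14.97 CPM ± 7.74, a range that overlapped that of tuft-like cells. Paneth cells had 6 and 5 UMIs in Arid3a cKO 1 and WT and 0 in Arid3a cKO 2, which allows up to 1.18 CPM.

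Ppara (ENSMUSG00000022383, chromosome 15, 85734983 to 85802819, plus strand), the receptor, and Cpt1a (ENSMUSG00000024900, chromosome 19, 3322334 to 3385733, plus strand), the carnitine transferase that controls entry of long-chain fatty acids into mitochondria, were not enriched in enterocytes. Ppara had 14.6, 13.3 and 11.7 CPM in enterocytes and 13.7, 12.8 and 10.7 CPM in ISC and TA cells. Its 4 highest classes, ISC, enterocytes, TA and enteroendocrine cells, were neighbours whose ranges over libraries overlapped. In tuft-like cells it had 1, 3 and 0 UMIs, and the 0 in WT allows up to 6.55 CPM. Cpt1a had 50.7, 49.1 and 46.5 CPM in enterocytes and 51.7, 52.1 and 43.6 CPM in ISC and TA cells. Its highest class was tuft-like cells, at 101, 90.2 and 127 CPM from 46, 37 and 58 UMIs, above the other classes in every library, which from TA to goblet cells lay between 43.7 and 51.3 CPM on average.

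Acadl and Acadm encode the long-chain and medium-chain acyl-CoA dehydrogenases of mitochondria, and Ehhadh the bifunctional enzyme of peroxisomal beta-oxidation. Acadl (ENSMUSG00000026003, chromosome 1, 66830839 to 66863277, minus strand) had 234, 247 and 197 CPM in enterocytes and 94.1, 86.2 and 80.1 CPM in ISC and TA cells. Acadm (ENSMUSG00000062908, chromosome 3, 153922357 to 153944632, minus strand) had 246, 222 and 228 CPM in enterocytes against 118, 107 and 94.5 CPM. Ehhadh (ENSMUSG00000022853, chromosome 16, 21761287 to 21787807, minus strand) had 104, 106 and 122 CPM against 22.4, 22.7 and 24.2 CPM. The ratio of enterocytes to ISC and TA cells was 2.46 to 2.87 for Acadl, 2.08 to 2.41 for Acadm and 4.62 to 5.04 for Ehhadh. Enterocytes were the highest class for all 3 genes, with no overlap with the next class. Paneth cells were the lowest class by CPM, which is a share of their large UMI totals. The order by UMIs per cell can differ: Ehhadh in WT had 29 UMIs in 29 Paneth cells and 60 in 144 goblet cells.

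**Figure D1:**
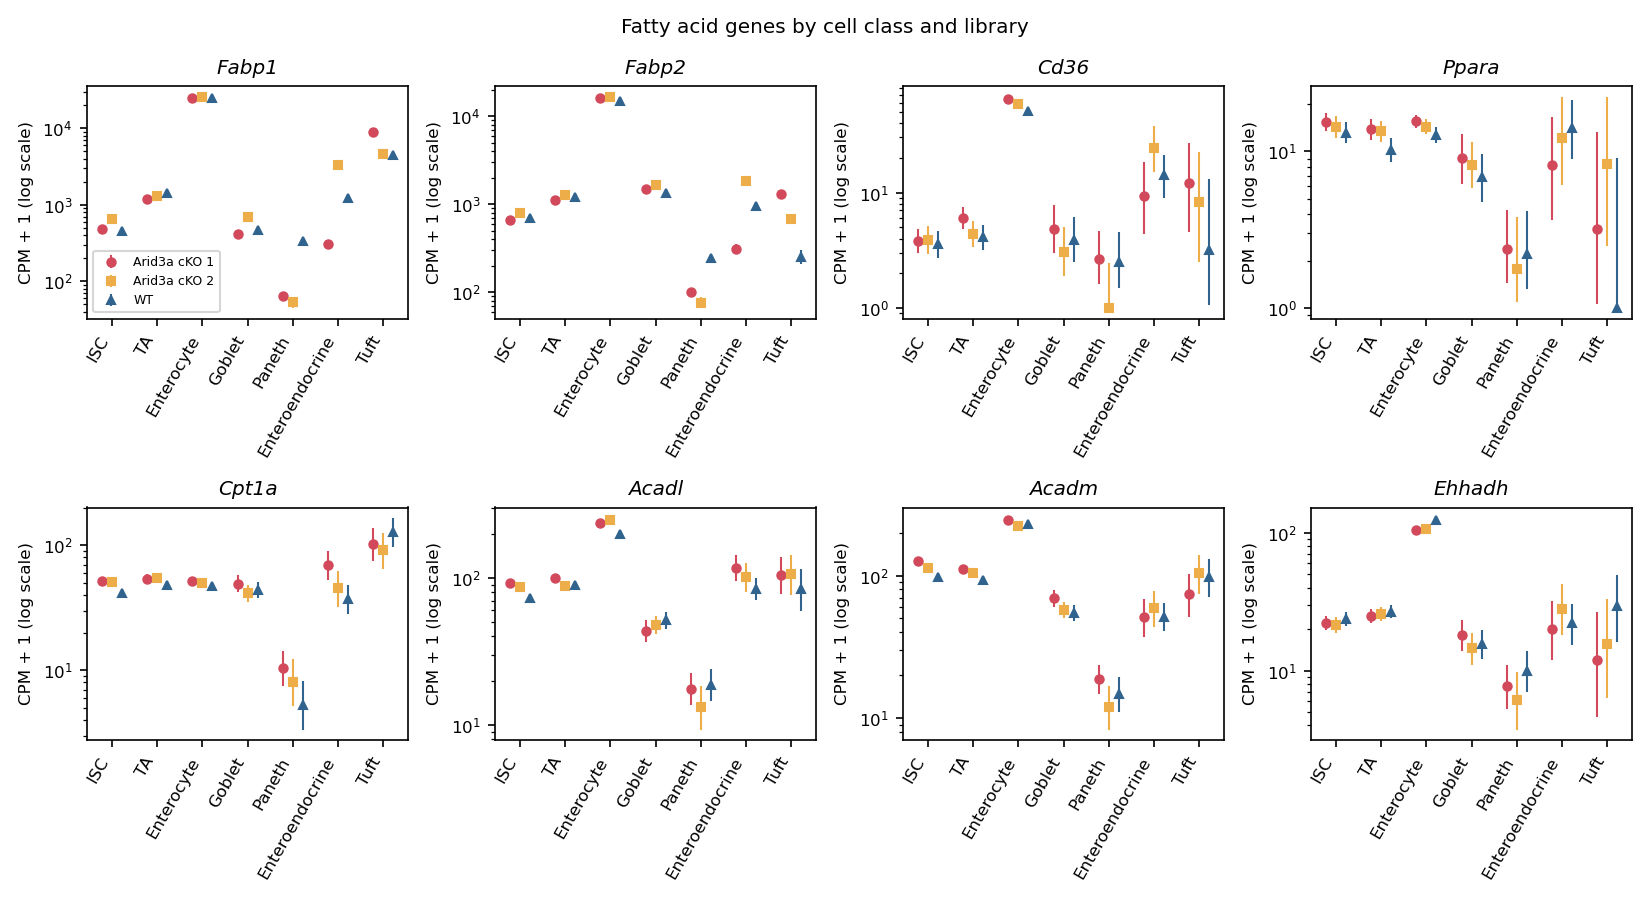
CPM + 1 on a log scale for each of the 8 genes (panels) by cell class, with 1 point per library and bars for the 95% Poisson interval of its count. Fabp1, Fabp2, Cd36, Acadl, Acadm and Ehhadh are highest in enterocytes, Cpt1a is highest in tuft-like cells, and Ppara is about equal in ISC, TA cells and enterocytes.

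Within the enterocytes, the 3 large clusters differed from each other for most of the genes. Cd36 stood out in the cluster led by Cubn, a receptor of mature absorptive cells, with 101, 86.9 and 70.6 CPM, against 39.4, 35.4 and 36.0 CPM in the Ms4a18 cluster and 33.9, 29.2 and 23.9 CPM in the S100g cluster. Fabp1 and Fabp2 were also highest in the Cubn cluster, Fabp1 at 33620, 31657 and 29882 CPM and Fabp2 at 23499, 21422 and 20393 CPM. The interferon-led cluster was close to the Cubn cluster for both binding proteins, with 27070 to 30075 CPM of Fabp1.

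Cpt1a took the opposite course. It had 71.6, 74.7 and 69.0 CPM in the Ms4a18 cluster, 51.7, 47.7 and 45.6 CPM in the S100g cluster and 29.7, 30.6 and 29.0 CPM in the Cubn cluster, in which it was below its level in ISC and TA cells in all 3 libraries. Of the 3 large clusters, the S100g cluster had the most Acadl and Ehhadh, Acadl at 282, 294 and 254 CPM and Ehhadh at 145, 154 and 184 CPM. The interferon-led cluster, of 15 to 26 cells a library, had still more Acadl in both cKO libraries (341 and 393 CPM) and less in WT (234 CPM). Acadm was nearly level across the 3 large clusters, between 210 and 270 CPM in every library.

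The unnamed cluster led by Ccl20 lay between crypt cells and enterocytes for the binding proteins, with 3191, 3403 and 3267 CPM of Fabp1. It had the most Ppara of the 12 clusters, 27.7, 27.2 and 23.6 CPM, above every other cluster in each library, and a Cpt1a level of 75.9, 68.1 and 60.7 CPM. Its Acadm level of 224, 203 and 191 CPM was already near that of enterocytes, whereas its Cd36 level was 10.2, 10.1 and 9.75 CPM.

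**Figure D2:**
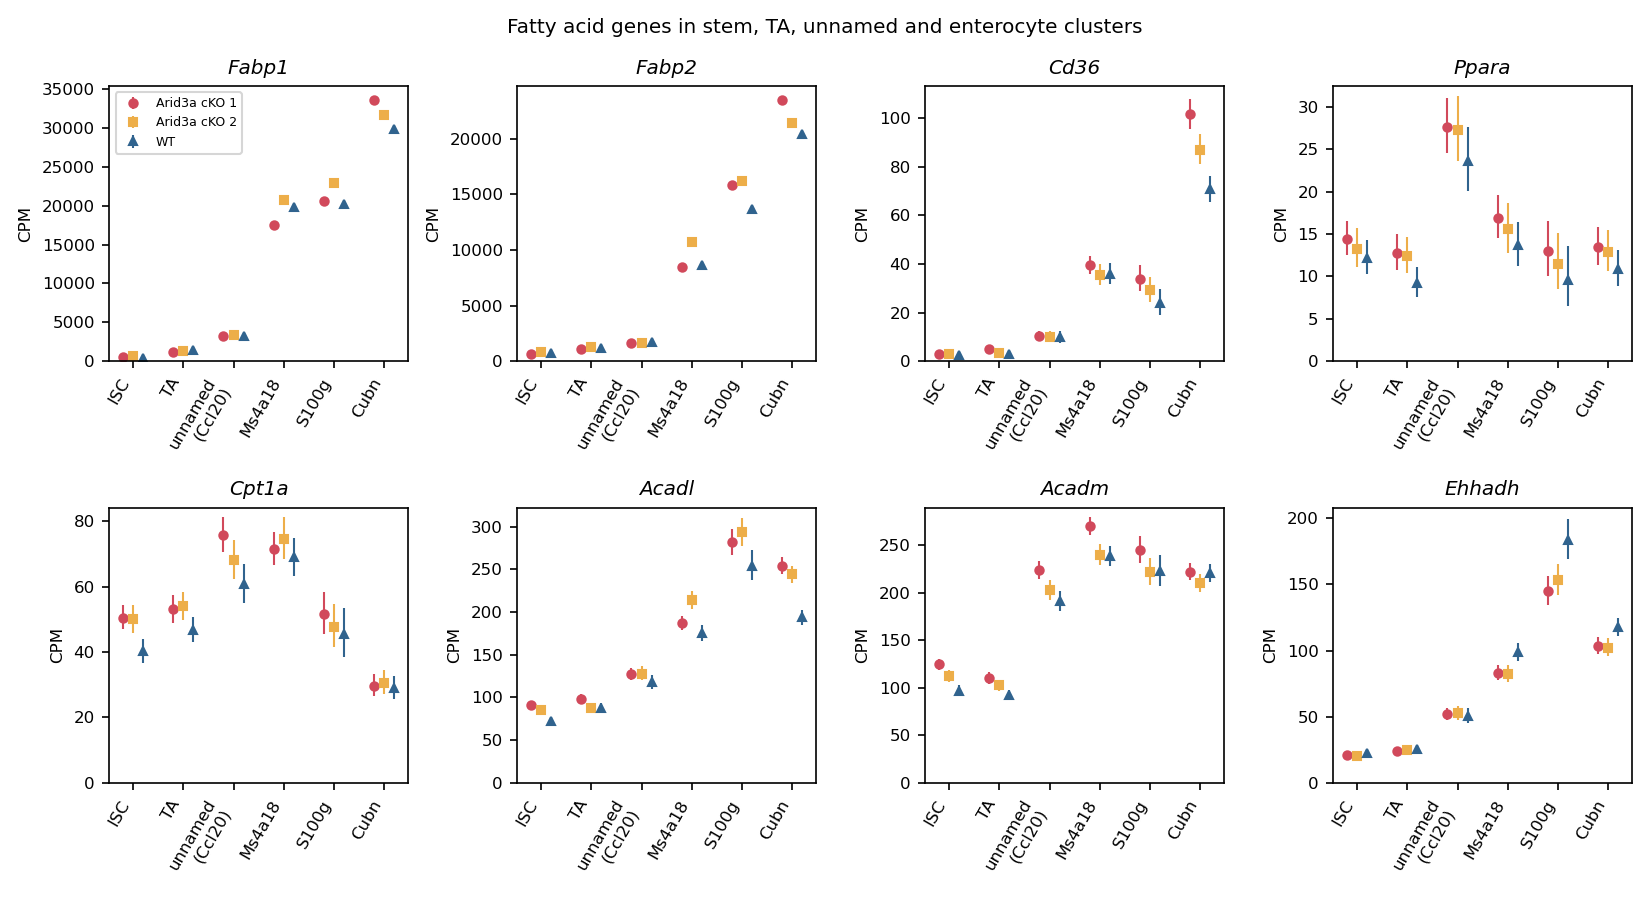
CPM of each of the 8 genes (panels) in the ISC, TA, unnamed Ccl20 and 3 large enterocyte clusters, 1 point per library with its 95% Poisson interval, on axes from 0. Fabp1, Fabp2 and Cd36 are highest in the Cubn cluster and Cpt1a is lowest there, while Ppara is highest in the unnamed cluster; the order of the clusters was chosen for display.

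To see which genes shared these patterns, each gene was compared with 5719 genes of at least 20 CPM on average over 20 sums of a class in a library. Pearson's r of log2(CPM + 5) is given as a description, since the sums share libraries and the classes were drawn from the same cells. Cd36 was closest to Nat8, Asah2, a ceramidase, and Lipa, the lysosomal acid lipase (r = 0.97 for each). Acadl was closest to Lpcat3, which remodels membrane phospholipids, Reep3 and Gipc2 (r = 0.97 to 0.98), and Ehhadh to Abhd6, a monoacylglycerol lipase, Naprt and Ces2c (r = 0.96 to 0.98). For Acadm, Pdcd6 and Grhpr were among the closest (r = 0.98 for each). Fabp1 was closest to Spink1, Erich4 and Clic5 (r = 0.95 to 0.96) and Fabp2 to Fbln1, Slc6a20a and Clec2h (r = 0.97 to 0.98). Cpt1a was closest to the widely expressed genes Scand1, Actr2 and Erp29 (r = 0.97 to 0.98), and Ppara, with the lowest values, to Mal2, Gsto1 and Zfp36 (r = 0.92 to 0.93). Among the 8 genes, the closest pair was Acadl and Acadm (r = 0.89) and the most distant Ppara and Cpt1a (r = 0.18).

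The genotypes were compared with the sum over all epithelial cells, which does not depend on clusters. Fabp1 had 10116 and 10315 CPM in the cKO libraries and 9231 CPM in WT, and Fabp2 6663 and 6746 CPM against 5805 CPM. Cd36 had 27.5 and 23.7 CPM against 20.4 CPM, Ppara 15.1 and 13.9 CPM against 11.5 CPM, and Cpt1a 52.9 and 50.4 CPM against 44.3 CPM. Acadl had 146 and 144 CPM against 118 CPM, and Acadm 173 and 152 CPM against 141 CPM. Both cKO libraries were thus above WT for these 7 genes, and for 30% of all 16670 genes tested. Ehhadh, at 56.6 and 56.4 CPM against 60.2 CPM, was below WT in both.

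None of the 8 differences over all cells passed the test, edgeR's quasi-likelihood test with Benjamini-Hochberg adjustment over all genes, in which 0.696% of genes passed. Unadjusted p-values of edgeR were under 0.05 for 5 of the 8 genes and for 1833 of all 16670 genes. DESeq2 also called 0 of the 8, with 3 under 0.05 unadjusted. Acadl had the lowest adjusted p, 0.199, at a log2 fold change of 0.33 (SE 0.088). The largest fold changes were those of Ppara, 0.37 on the log2 scale (95% interval 0.11 to 0.64), and Cd36, 0.36 (0.10 to 0.63). The median over the 8 genes was 0.25, against -0.0029 over all genes tested. For genes enriched in enterocytes, sums over all cells cannot tell a larger share of enterocytes from more transcripts per cell. For Ppara and Cpt1a, which were not enriched in enterocytes, the part of cell composition was not tested.

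In enterocytes alone, 0 of the 8 genes passed the same test, with which 4.08% of 12426 genes passed (507 genes), 1.99% higher and 2.09% lower in cKO. Unadjusted p-values of edgeR were under 0.05 for 2 of the 8 genes, Cd36 and Acadl, and for 1809 of all 12426 genes. DESeq2 called 0 of the 8, with Acadl alone under 0.05 unadjusted. Acadl, whose WT library lay below both cKO libraries, had a log2 fold change of 0.30 (SE 0.12, 95% interval 0.07 to 0.53, adjusted p = 0.143). Cd36, whose WT library was also the lowest, had 0.28 (SE 0.11, 0.07 to 0.48, adjusted p = 0.129). Both cKO libraries were above WT for 6 of 8 genes, as for 35.0% of all genes. Acadm had WT between the cKO libraries, and Ehhadh had WT above both, with a fold of 0.868 (95% interval 0.753 to 1.00, adjusted p = 0.343).

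The intervals give the sizes of difference that the fit leaves possible. In enterocytes the fit shared its spread between genes of like abundance, so the widths do not measure the spread of each gene. For Cpt1a in enterocytes the fold of cKO over WT was 1.08 (0.936 to 1.25), for Acadm 1.03 (0.883 to 1.21) and for Ppara 1.201 (0.967 to 1.49). With the 4 enterocyte clusters weighted equally, the log2 fold change of Ppara was 0.039 in place of 0.26. That of Cd36 was 0.43 in place of 0.28 and that of Ehhadh -0.32 in place of -0.20. The interferon-led cluster, with 5, 2 and 7 Ppara UMIs (Arid3a cKO 1, Arid3a cKO 2, WT), then counted as much as each large cluster. In the clusters led by Cubn, Ms4a18 and S100g, both cKO libraries were above WT for Ppara. In the main fit, without that weighting, the fold of cKO over WT was 1.04 (0.626 to 1.72) for Fabp1 and 1.10 (0.704 to 1.71) for Fabp2. These intervals were wider although 525402 to 656881 Fabp1 UMIs were counted per library. The fit gave Fabp1 a standard error of 0.37 on the log2 scale, against 0.11 for Cd36, from a spread shared between genes of like abundance. Fabp1 in enterocytes came from cKO libraries of 24594 and 25963 CPM, and the gap between them was larger than the distance of the first to WT at 24574 CPM.

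By cluster, the higher Cd36 of the cKO libraries was seen in the Cubn cluster (101 and 86.9 against 70.6 CPM) and the S100g cluster (33.9 and 29.2 against 23.9 CPM). In the Ms4a18 cluster WT, at 36.0 CPM, lay between the cKO libraries at 39.4 and 35.4 CPM. Acadl was above WT in both cKO libraries in all 4 enterocyte clusters, by the most in the interferon-led cluster and next in the Cubn cluster, where the values were 254 and 244 against 194 CPM. Ehhadh was below WT in both cKO libraries in all 4 clusters, for example at 145 and 154 against 184 CPM in the S100g cluster. These values per cluster were not tested.

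In ISC and TA cells, 0 of the 8 genes passed, against 1.71% of 14611 genes. None had an unadjusted p under 0.05 with either edgeR or DESeq2, whereas 1112 of all 14611 genes had with edgeR. Both cKO libraries were above WT for 5 of 8 genes, Cd36, Ppara, Cpt1a, Acadl and Acadm, as for 32.4% of all genes. The largest fold was that of Ppara, 1.25 (95% interval 0.986 to 1.58), followed by Cd36 at 1.23 (0.824 to 1.84) from 68 to 97 UMIs per library. Whether the genotype difference itself differed between enterocytes and ISC and TA cells was tested by an interaction term over both classes. It passed for 0 of the 8 genes, against 0.192% of 13569 genes, and 0 had an unadjusted p under 0.05 (edgeR, 890 of all 13569 genes). The largest interaction estimate was that of Acadm, -0.21 on the log2 scale (-0.51 to 0.10).

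**Figure D3:**
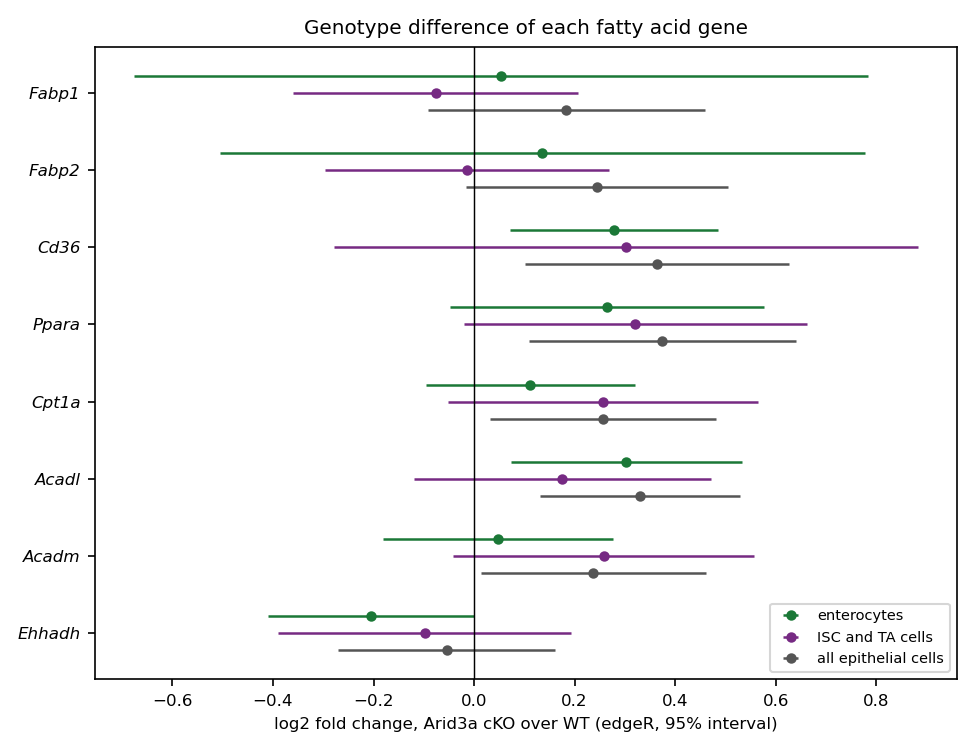
Log2 fold change of Arid3a cKO over WT for each of the 8 genes in enterocytes, in ISC and TA cells and in all epithelial cells, with 95% intervals of the edgeR fit (2 cKO libraries, 1 WT library). Points lie between -0.20 and 0.37; no gene passed the adjusted threshold, although several intervals lie above 0, among them those of Cd36 and Acadl in enterocytes.

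Around these genes, 65 genes of fatty acid metabolism were examined in lists by step of the pathway. In enterocytes 62 were tested, 4 were higher in cKO, of which 3 are described here, and 0 lower (all 12426 genes: 1.99% and 2.09%), and the median log2 fold change was 0.02, against 0.01 over all genes. Of mitochondrial beta-oxidation 0 of 15 genes passed, 0 of 10 of peroxisomal oxidation, 0 of 4 of the carnitine shuttle, 0 of 6 of triglyceride synthesis and 0 of 4 of fatty acid synthesis. By unadjusted p-value of edgeR, 10 of the 62 were under 0.05, as were 1809 of all 12426 genes.

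Ucp2, a carrier of the inner mitochondrial membrane, had 628 and 632 CPM in enterocytes of the cKO libraries and 407 CPM in WT. Its log2 fold change was 0.64 (SE 0.14, adjusted p = 0.000406), and it was the single gene of these lists that DESeq2 also called. Pdk4, the pyruvate dehydrogenase kinase that limits glucose oxidation when fatty acids are burned, had 23.0 and 18.0 CPM against 10.99 CPM, a log2 fold change of 0.91 (SE 0.16, adjusted p = 6.42e-07). These 2 were the called genes among 12 PPAR partners and targets. Ppard, Pparg and Rxra, which encode other receptors of this system, their coactivators Ppargc1a and Ppargc1b, Creb3l3, and the targets Angptl4, Plin2, Cyp4a10 and Vnn1 did not pass. Plin2, which coats lipid droplets and is named after its values were seen, had 137 and 125 CPM against 164 CPM, a log2 fold change of -0.31 (adjusted p = 0.0806).

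Acsl1, which activates long-chain fatty acids to acyl-CoA, had 64.6 and 60.04 CPM in enterocytes of the cKO libraries and 48.3 CPM in WT (log2 fold change 0.38, SE 0.11, adjusted p = 0.0130), the single call among 8 genes of uptake and activation. It was also above WT in ISC and TA cells, at 46.1 and 40.4 against 30.9 CPM, where it was not called. Acsl1 lost its call with DESeq2 (0.38), without cells marked as doublets (0.39) and with wider or stricter limits on cells (0.42 and 0.33), at log2 fold changes close to that value. None of the 3 was called with the unnamed clusters added to the enterocytes, at log2 fold changes of 0.85 for Pdk4, 0.57 for Ucp2 and 0.38 for Acsl1.

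In ISC and TA cells 0 of 64 genes of the lists were higher and 2 lower (1.71% of all genes in either direction). Slc27a4, a fatty acid transport protein, had 23.3 and 27.9 CPM against 37.1 CPM (log2 fold change -0.53, SE 0.15, adjusted p = 0.0287), and the peroxisomal thiolase Acaa1b 2.47 and 3.62 CPM against 5.79 CPM (-0.93, SE 0.26, adjusted p = 0.0264). DESeq2 called neither. Over all cells edgeR called 0 of 65, with 15 under 0.05 unadjusted (1833 of all 16670 genes), and DESeq2 called 1, Ucp2. The interaction passed for 0 of 64, with 6 under 0.05 unadjusted (890 of all 13569 genes).

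Some markers of intestinal position also differed between these enterocytes. Of 6 markers of the proximal intestine 4 were higher in cKO (1.99% of all genes), among them S100g (log2 fold change 1.15) and Akp3 (1.69). Gata4 and Onecut2 were not called. Log2 fold changes were above 0 for 5 of the 6 in enterocytes, for 5 in ISC and TA cells and for 4 over all cells. The summed level of the 6 in enterocytes was 2655 and 3633 CPM in the cKO libraries against 1565 CPM in WT. All 6 had UMIs in each library, though Cybrd1 rested on 14, 47 and 2. In ISC and TA cells, and likewise over all cells, 3 of the 6 were higher (Slc40a1, S100g and Akp3), where 1.71% and 0.696% of all genes were called in either direction. Of 5 markers of the distal intestine edgeR tested 4 and called 0, with 1 under 0.05 unadjusted (1809 of all 12426 genes). DESeq2 called 0, with 0 under 0.05 unadjusted. The summed level of the distal markers was 517 and 505 CPM against 594 CPM. S100g is also among the enterocyte markers used to name clusters, and the paper reports it as an enterocyte marker with increased expression in cKO cells. The cluster led by S100g held 17.9% and 20.8% of the enterocytes of the cKO libraries and 15.2% of those of WT. The part of intestinal position in the values of the fatty acid genes was not tested. Markers of cells that the sort should remove, 8 genes such as Ptprc and Pecam1, summed to 0.140 to 0.562 CPM in enterocytes, with Col1a1 at 0 in every library, and to 2.11, 2.66 and 5.20 CPM over all cells, highest in WT.

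**Figure D4:**
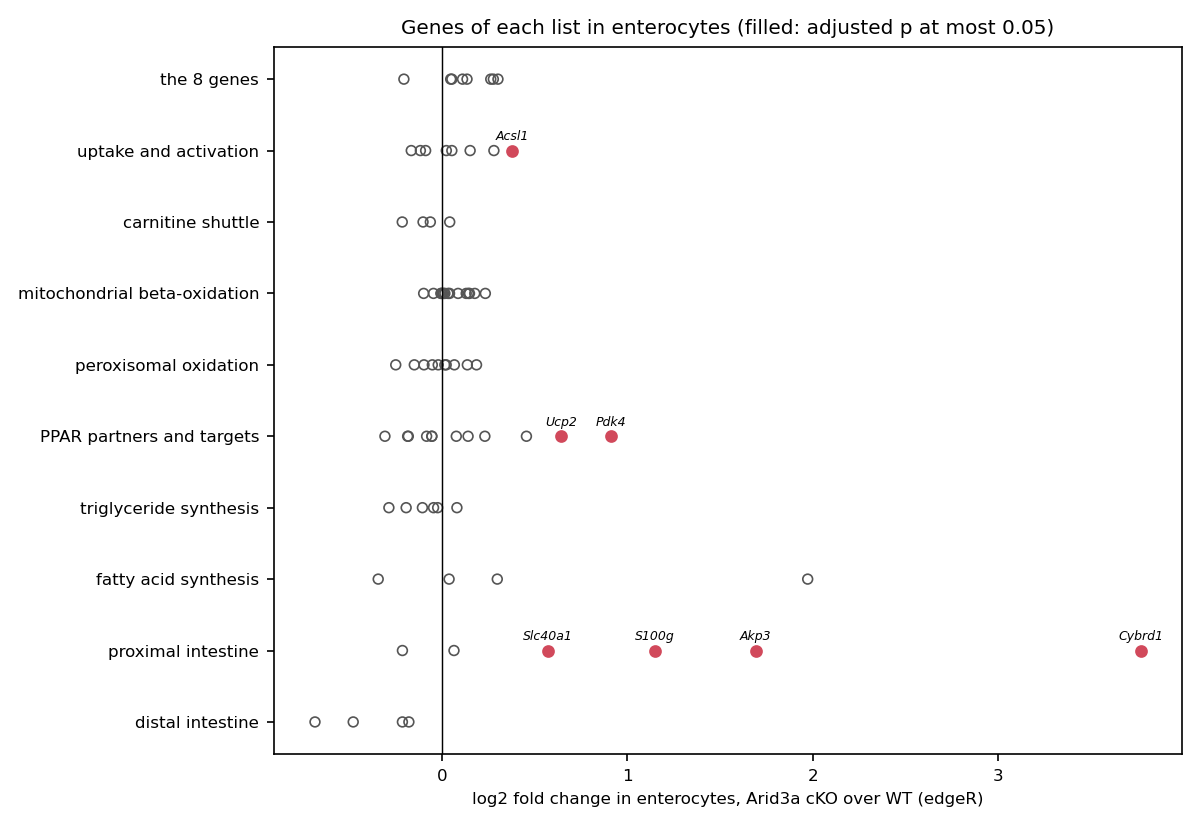
Log2 fold change of Arid3a cKO over WT in enterocytes (edgeR) for the tested genes of the lists shown, with the 8 fatty acid genes in the top row; filled points passed the adjusted threshold of 0.05. The called genes Acsl1, Ucp2 and Pdk4 lie at 0.38 to 0.91, and 4 of 6 proximal markers lie at 0.57 to 3.77.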

How the data were processed

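scRNA-seq was analysed in 2 Arid3a cKO libraries and 1 WT library, grouped by the genotype label. The authors deposited UMI counts of each gene in each barcode, not normalized, from CellRanger 5.0.0 (file headers). The mouse genome build is not given in the sources used here. Of the gene identifiers 99.6% are in GENCODE M21 (GRCm38), from which coordinates were taken.

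The 8 genes and all lists were chosen with earlier results of these data known. Cells were kept with at least 1000 genes and at most 15% mitochondrial UMIs, the study's limits, which left 16.2 to 31.2% of barcodes. The cKO libraries differed by far more than sampling noise (chi-square 40.1 per gene). Libraries were aligned with Seurat 5.3.0 under R 4.3.3 (CCA, 3000 features, 30 components, resolution 0.3) after leaving out the genes reported. A cluster was named when at least 3 markers of a class were among its top 50 genes, or when at least 3 and at least 50% of a class's markers were 1.5-fold higher. Only markers seen in at least 25% of the cluster's cells counted. The name was withheld if another class had more markers among the top 10 genes, or if a shallow cluster had no marker of the class there. These naming thresholds were chosen with the clusters in view. Doublets were kept (Scrublet marked 110 of 5594 cells, 1.97%), as the methods name no removal.

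UMI counts were summed per class and library and tested with edgeR 4.0.16 (quasi-likelihood, TMM, filterByExpr), 2 libraries against 1, at an adjusted p of 0.05. The spread comes from the cKO pair and is assumed to hold for WT. In the fits of enterocytes and of ISC with TA cells, edgeR shared the spread fully between genes of like abundance, so p-values measure little of the spread of single genes. DESeq2 1.42.0 was an alternative. The fits were tested on simulated data with the same spread for all genes. In enterocytes, ISC with TA cells and all cells they recovered 71%, 69% and 74% of 2-fold changes. Of 4-fold changes they recovered 96%, 96% and 89%. Smaller changes, such as those of the 8 genes, were not simulated. CPM is a normalization computed here. Genes named were all 8, up to 4 called genes per list and direction, and the 3 most alike genes per member. Motifs were searched in RefSeq windows of 250 bases. Low counts limit precision for Ppara. Some genes that this rule names are not reported here.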

Additional observations from a re-analysis of the deposited data

How the results depend on the processing

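None of the 8 genes passed the threshold in enterocytes, in ISC and TA cells or over all cells under any alternative with a test. Of 88 recomputed fold changes in enterocytes 5 turned: Fabp1 was -0.0017 with at most 10% mitochondrial UMIs and -0.014 to 0.12 when each cKO replicate was left out in turn, Acadm -0.0013 to 0.091 likewise, and, with enterocyte clusters weighted equally, Acadm -0.033 and Cpt1a -0.0031. Under that weighting Ppara was 0.039 (against 0.26), Cd36 0.43 (0.28) and Ehhadh -0.32 (-0.20). It counts the interferon-led cluster like the large ones, with 5, 2 and 7 Ppara UMIs and 20, 8 and 19 Cpt1a UMIs (Arid3a cKO 1, Arid3a cKO 2, WT). The lowest adjusted p was 0.0927. The count of pathway genes called in enterocytes was 4, and 1 with DESeq2 (Ucp2), 2 without cells marked by Scrublet, 2 with at most 10% mitochondrial UMIs (Pdk4 and Ucp2 in both) and 0 with the unnamed clusters added. With at most 25% mitochondrial UMIs and at least 500 genes the count was 3, all higher in cKO: Pdk4, Ucp2 and Pparg, which did not pass in the main fit. All genes called in enterocytes numbered 507, and 75, 168 and 49 with DESeq2, without marked cells and with the unnamed clusters. The cause was not tested. The unnamed clusters and, for counts in enterocytes, the 10% limit were alternatives chosen after seeing the data. The mean of Fabp1 over cells in enterocytes was 23900 CPM, against 25044 CPM from summed UMIs. Without either cKO library a single library stood against WT, so only fold changes were recomputed. No paired analysis was possible because WT has a single library and so a single replicate number.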

Other observations

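In barcodes outside the cell limits, those with fewer than 1000 genes or more than 15% mitochondrial UMIs, the 8 genes were not depleted alike. Fabp1 had 2120, 1927 and 1458 CPM there (Arid3a cKO 1, Arid3a cKO 2, WT), against 9231 to 10315 CPM in kept cells, and Fabp2 1418 to 2062 CPM. Cd36 had 26.3, 26.6 and 20.6 CPM, close to its level in kept cells of each library, and Ehhadh 63.8, 83.9 and 76.5 CPM, above its level in kept cells in all 3. Cpt1a, at 22.3, 26.2 and 21.1 CPM, was below it in all 3.

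Enteroendocrine cells, 45, 43 and 87 per library, had the highest level of Acsl1, 190 CPM ± 29.3 (SD, n = 3 libraries), against 57.6 CPM ± 8.39 in enterocytes. Their Fabp1 level was 308, 3296 and 1238 CPM, and their Fabp2 level followed the same order, at 312, 1813 and 956 CPM.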
